A study of Mus musculus with 4 samples.

Results

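The 10 genes described here encode the metallothioneins Mt1 and Mt2, the transcription factor Nrf2 (gene Nfe2l2) and 7 antioxidant genes that Nrf2 is known to drive, namely Hmox1, Nqo1, Gclc, Gclm, Txnrd1, Srxn1 and Slc7a11. They were chosen by symbol from the 15429 genes of the table, and all 10 were present. Earlier results of these data were known when the choice was made. The study measured polyadenylated RNA in OE7 cells, a line of mouse epiblast stem cells, which are pluripotent cells derived from the post-implantation embryo and grown on fibronectin with Activin A and Fgf2. There were 2 libraries of cells transfected with Tox4 esiRNA, a pool of short interfering RNAs against the HMG-box gene Tox4, and 2 of cells transfected with esiRNA against luciferase (Luc), the control. Every library came from the same line, which carries the Oct4-Gip transgene, an Oct4 reporter, so the data speak for a single line and for RNA of whole cultures. The series dealt with the regulation of Oct4, and the comparison asked which transcripts differ when Tox4 is depleted.

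Metallothioneins are small cysteine-rich proteins that bind zinc and copper and that also scavenge oxidants. Their genes are switched on by the metal-sensing factor Mtf1 through metal response elements in their promoters. Nrf2 is held in the cytoplasm and marked for destruction by Keap1. When oxidants or electrophiles modify Keap1, Nrf2 accumulates, pairs with a small Maf protein and binds antioxidant response elements of genes for glutathione synthesis, thioredoxin recycling and haem breakdown. Bach1, a haem-sensing repressor, occupies the same elements, and Hmox1 is its best-known target.

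The promoters of the metallothionein pair are shown because Mt1 passed the test and its neighbour on chromosome 8, Mt2, did not. That contrast of calls is not a tested difference between the genes, and its relation to the promoters was not tested. The sequences are RefSeq's (GRCm38.p6), plus strand, from 250 bases before to 50 bases after the annotated start. Capitals mark the metal response element core, searched as TGCACNC and TGCGCNC on both strands.
Mt1, chr8:94178839-94179138: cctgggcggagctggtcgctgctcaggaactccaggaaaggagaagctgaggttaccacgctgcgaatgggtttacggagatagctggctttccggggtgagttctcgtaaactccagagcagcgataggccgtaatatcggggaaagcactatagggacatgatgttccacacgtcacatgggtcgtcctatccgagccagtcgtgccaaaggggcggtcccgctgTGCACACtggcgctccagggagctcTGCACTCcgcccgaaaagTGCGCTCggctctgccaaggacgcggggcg
Mt2, chr8:94172368-94172667: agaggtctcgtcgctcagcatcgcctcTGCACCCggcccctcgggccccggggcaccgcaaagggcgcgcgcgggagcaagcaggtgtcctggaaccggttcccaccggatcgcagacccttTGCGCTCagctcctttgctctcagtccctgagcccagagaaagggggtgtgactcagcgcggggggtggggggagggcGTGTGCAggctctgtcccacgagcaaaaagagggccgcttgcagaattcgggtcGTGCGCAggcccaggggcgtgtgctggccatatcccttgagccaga
The Mt1 window held 3 such cores and the Mt2 window 4, none overlapping another. Among 32851 promoter windows of the same length 25.7% held at least 1 core and 1.97% held 3 or more. The metallothionein genes were not alone in this, since the window of Gclm also held 3 and that of Srxn1 held 1. The core of the antioxidant response element, searched as TGACNNNGC on both strands, was found in 12.4% of all windows. It was found in a window of 5 of the 8 genes present in the promoter table, Mt2, Nfe2l2, Gclm, Txnrd1 (in 1 of its 3 windows) and Srxn1. In Mt2 it read TGACTCAGC from position -79, counted from the annotated start, and no such core was found in the windows of Mt1, Nqo1 and Slc7a11. In Gclm the core at -134 overlapped a metal response element core at -138. In Mt1 the metal response element cores began at -23, 3 and 21, near the downstream end of the window. Bases beyond a window were not searched, so the absence of a core holds for that window only. Hmox1 and Gclc have no entry in the promoter table. A match of letters is a description of the window and not evidence of a bound site.

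The reads counted on genes were worked back from the FPKM values (fragments scaled to gene length and library depth) and came to 14740029 and 12778787 reads in Tox4 replicates 1 and 2 and to 19009927 and 14999041 reads in Luc replicates 1 and 2. Tox4 itself stood at 8.65 and 8.89 FPKM in the Tox4 esiRNA libraries, against 16.7 and 17.5 FPKM in the Luc libraries, a ratio of 0.512 (log2 fold change -0.89, SE 0.05, limma adjusted p = 0.00228). Of the exon bases of Tox4 933 lie opposite those of Mettl3 and 195 opposite those of Rab2b, so without strand part of the remaining reads could belong to these genes. All 8 epiblast markers listed were above 1 FPKM, with a sum of 1272 and 1309 FPKM in the Tox4 esiRNA libraries and 1306 and 1283 FPKM in the Luc libraries. Among them Sox2 rose (log2 fold change 0.24, limma adjusted p = 0.0355), and the other 7 did not pass, at -0.15 (Otx2) to 0.030 (Pou5f1). Of 7 naive pluripotency markers 3 were in the table, with sums of 5.28 to 6.64 FPKM over the libraries. The 8 fibroblast markers were all in the table, 4 of them below 1 FPKM and none at 0 throughout, and summed to 19.5 and 20.3 FPKM in the Tox4 esiRNA libraries and to 21.4 FPKM in each Luc library. Mitochondrially encoded transcripts took 1.05% of reads in each Tox4 esiRNA library, against 0.864% and 0.840% in Luc replicates 1 and 2. The part of these shifts in the results below was not tested. In RNA of whole cultures, fewer cells of a type and less RNA per cell cannot be told apart.

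After Tox4 knockdown Mt1 and Hmox1 fell, to 0.757 and 0.785 of their mean Luc levels, and no other tested gene of the group passed the threshold. The test was limma's on log2(FPKM + 1), adjusted over the 12403 genes that averaged 1 FPKM or more, at a threshold of 0.05. Of the 10 genes 9 were tested, of which 0 rose, 2 fell and 7 did not pass. Of all tested genes 1.89% were called higher and 2.62% lower. At an unadjusted p under 0.05 the tested genes of the group split into 2 higher (Txnrd1 and Srxn1) and 2 lower, against 1243 higher and 1431 lower of the 12403 tested genes, and the limma-voom fit of recovered reads called 0 higher and 2 lower, against 5.89% and 5.79% of all tested genes. The median log2 fold change of the 9 genes was -0.11, beside -0.0034 over all tested genes. Both Tox4 esiRNA libraries lay above both Luc libraries for 2 of the 9 genes and below both for 4, where 25.3% and 26.7% of all tested genes lay so. Whether the replicates were separate cultures is not stated, and the tests therefore rest on the spread between libraries, which may be technical.

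**Figure D1:**
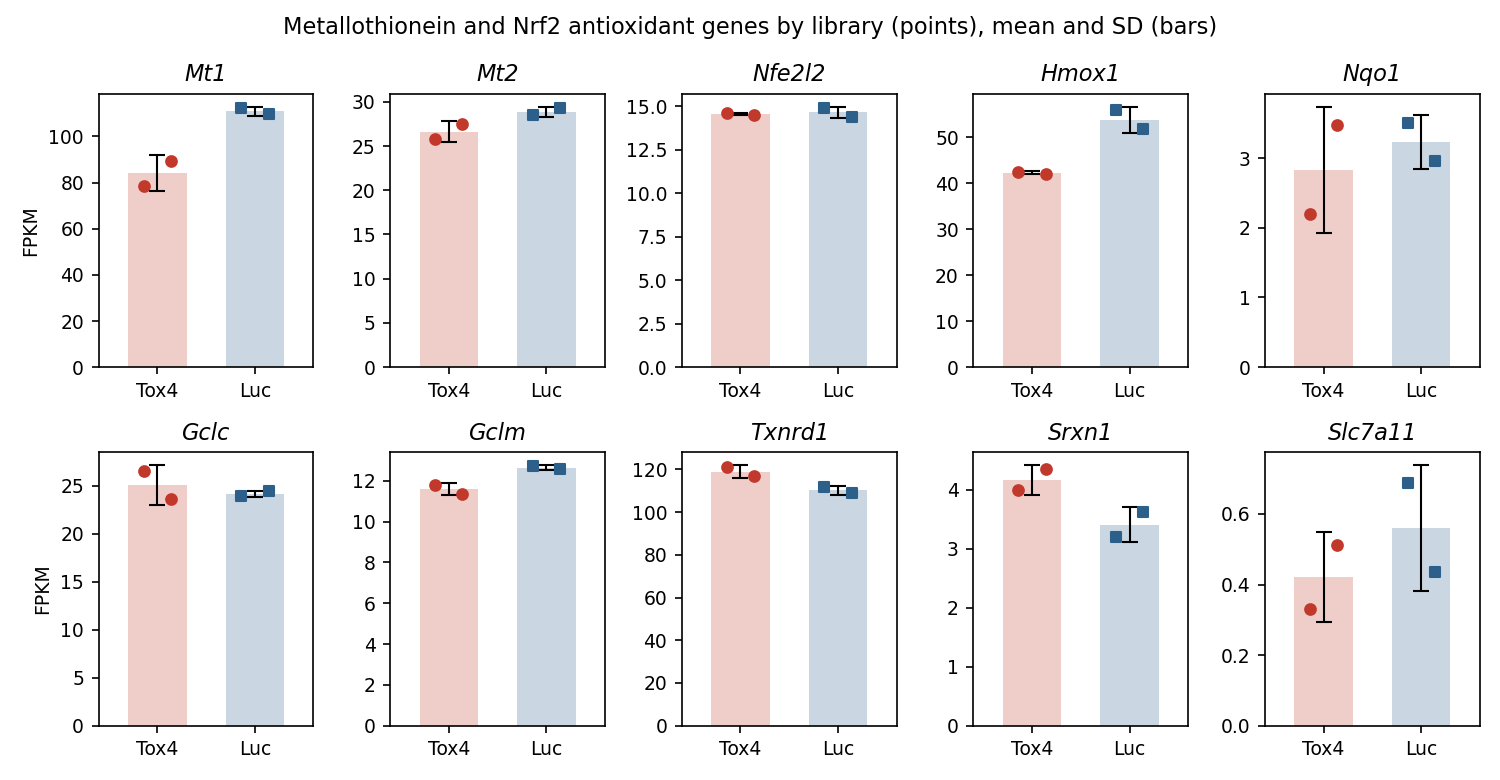
FPKM of each of the 10 genes in every library, Tox4 esiRNA (red circles, replicate 1 at the left) and Luc esiRNA (blue squares), with bars for the mean and error bars for the SD of 2 libraries; each panel has its own axis from 0. The 2 groups stand apart in Mt1, at 78.5 and 89.5 against 112 and 109.6 FPKM, and in Hmox1, at 42.5 and 42.0 against 55.9 and 51.9 FPKM. They also stand apart in Mt2 and Gclm, which lie lower with Tox4 esiRNA, and in Txnrd1 and Srxn1, which lie higher. They overlap in Nfe2l2, Nqo1, Gclc and Slc7a11. Of all tested genes 25.3% lay higher and 26.7% lower without overlap.

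Mt1 (ENSMUSG00000031765, chromosome 8, 94179082 to 94180327, plus strand) is the more abundant metallothionein transcript of these cells. It was at 78.5 and 89.5 FPKM in Tox4 esiRNA replicates 1 and 2, against 112 and 109.6 FPKM in Luc replicates 1 and 2, on 590, 583, 1089 and 838 reads in that order. Both Tox4 esiRNA libraries lay below both Luc libraries, and the Tox4 esiRNA libraries were the more spread. The means were 84.0 ± 7.77 FPKM with Tox4 esiRNA and 111 ± 1.98 FPKM with Luc esiRNA (SD, n = 2 each), a ratio of 0.757. On the log2 scale the fold change of Mt1 was -0.40 (95% interval -0.56 to -0.25, SE 0.06, limma adjusted p = 0.0302). Mt1 lost its call without Luc replicate 1 (log2 fold change -0.38) or without Luc replicate 2 (-0.42). Most calls over all genes were also lost without either Luc library, so these losses are not particular to Mt1. The log2 fold change of Mt1 was -0.31 without Tox4 replicate 1 and -0.49 without Tox4 replicate 2. In the fits without a Tox4 library, the lone Tox4 library is assumed to vary like the Luc libraries, the less spread pair. Those fits do not speak for the stability of the call. The call was also lost when genes with low values stayed in the test (adjusted p = 0.0519) and when no intensity trend was fitted (0.0996). With no trend 33 genes were called higher and 45 lower over all genes, against 234 and 325 in the main fit.

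Mt2 (ENSMUSG00000031762, chromosome 8, 94172664 to 94173568, plus strand), the other widely expressed metallothionein gene, did not pass. Its level was 25.8 and 27.5 FPKM in Tox4 esiRNA replicates 1 and 2, against 28.5 and 29.3 FPKM in Luc replicates 1 and 2, on 116, 107, 165 and 134 reads. The groups did not overlap, but the gap was small, with a log2 fold change of -0.11 (SE 0.05, 95% interval -0.23 to 0.00071, limma adjusted p = 0.234). The limma-voom fit of the recovered reads gave -0.12 with a larger SE of 0.12 (adjusted p = 0.621). The limma interval may therefore be too narrow for so few reads. Of the exon bases of Mt2 432 lie opposite those of Gm45774, an antisense gene. If strand was not used in counting, the reads of these genes cannot be told apart. The FPKM of Mt1 was 3.04 and 3.26 times that of Mt2 in the Tox4 esiRNA libraries and 3.95 and 3.74 times that of Mt2 in the Luc libraries, so the ratio was lower in both Tox4 esiRNA libraries than in either Luc library. The difference in response between Mt1 and Mt2 was not tested. A BLAST search of the annotated coding transcripts of Mt1, seeded on 28 identical bases, matched no other gene.

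**Figure D2:**
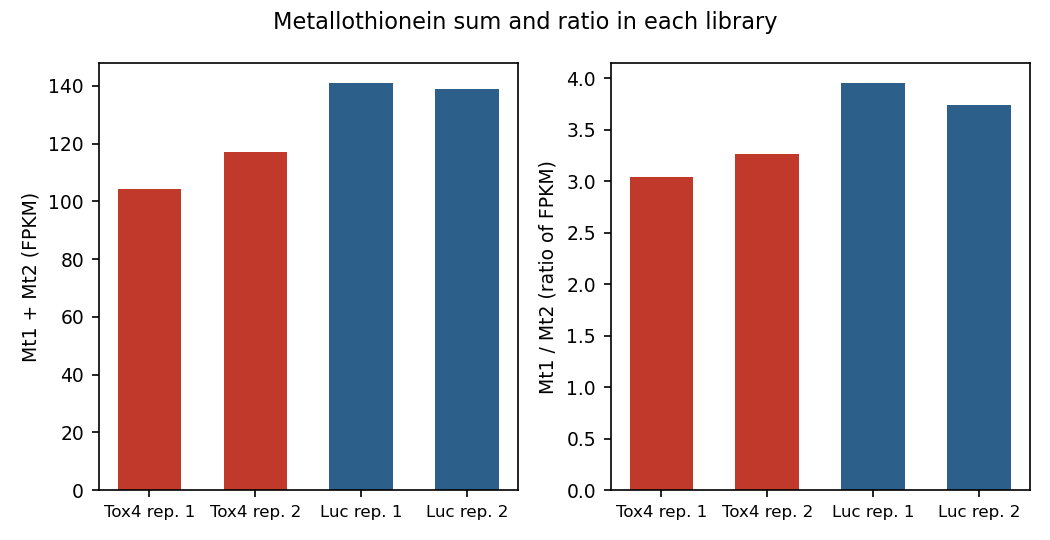
Summed FPKM of Mt1 and Mt2 (left) and the FPKM of Mt1 divided by that of Mt2 (right) in each of the 4 libraries, Tox4 esiRNA in red and Luc esiRNA in blue. The sum was 104 and 117 FPKM in the Tox4 esiRNA libraries and 141 and 139 FPKM in the Luc libraries, and the ratio was lower in both Tox4 esiRNA libraries, at 3.04 and 3.26, than in the Luc libraries, at 3.95 and 3.74.

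Nfe2l2 (ENSMUSG00000015839, chromosome 2, 75675513 to 75704641, minus strand), the gene of Nrf2, was at 14.6 and 14.5 FPKM in Tox4 esiRNA replicates 1 and 2, against 14.9 and 14.4 FPKM in Luc replicates 1 and 2. The groups overlapped. Its log2 fold change of -0.0084 (SE 0.05, 95% interval -0.12 to 0.11) was not past the threshold (limma adjusted p = 0.943), and its sign turned without Luc replicate 1, to 0.014. Nrf2 is regulated mainly through the stability of its protein, which was not measured. Keap1 (ENSMUSG00000003308, chromosome 9, 21229730 to 21239361, minus strand), the inhibitor of Nrf2, was at 9.36 and 9.62 FPKM in the Tox4 esiRNA libraries, against 8.48 and 8.62 FPKM in the Luc libraries. Its groups did not overlap and its log2 fold change was 0.14 (SE 0.05, 95% interval 0.0030 to 0.27), which did not pass after adjustment (limma adjusted p = 0.223). Of the exon bases of Keap1 510 lie opposite those of the antisense gene Gm16754.

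Hmox1 (ENSMUSG00000005413, chromosome 8, 75093621 to 75100589, plus strand) encodes the inducible haem oxygenase, which splits haem into biliverdin, iron and carbon monoxide. Its level was 42.5 and 42.0 FPKM in Tox4 esiRNA replicates 1 and 2, against 55.9 and 51.9 FPKM in Luc replicates 1 and 2, on 1320, 1132, 2238 and 1639 reads. The Tox4 esiRNA libraries were nearly equal and both lay below the Luc libraries. The means were 42.3 ± 0.321 FPKM with Tox4 esiRNA and 53.9 ± 2.84 FPKM with Luc esiRNA (SD, n = 2 each), a ratio of 0.785. On the log2 scale the fold change of Hmox1 was -0.34 (95% interval -0.45 to -0.23, SE 0.05, limma adjusted p = 0.0199). Hmox1 lost its call without Luc replicate 1 (-0.29) or without Luc replicate 2 (-0.39), as did most genes called. It also lost its call with no intensity trend (adjusted p = 0.0786). Without Tox4 replicates 1 and 2 its log2 fold change was -0.35 and -0.33, in fits where the spread within groups comes from the Luc pair. Hmox1 passed in the limma-voom fit of the recovered reads (adjusted p = 0.000173). Transcripts of other genes were not matched by those of Hmox1 in the BLAST search.

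Nqo1 (ENSMUSG00000003849, chromosome 8, 107388225 to 107403206, minus strand) encodes a quinone reductase and is often used as a readout of Nrf2. It was low, at 2.19 and 3.47 FPKM in Tox4 esiRNA replicates 1 and 2, against 3.50 and 2.96 FPKM in Luc replicates 1 and 2, on 51, 70, 105 and 70 reads. The groups overlapped, with Tox4 replicate 1 the lowest of the 4 libraries. The log2 fold change of Nqo1 was -0.16 with a wide interval of -0.58 to 0.26 (limma adjusted p = 0.652), and it turned to 0.084 without Tox4 replicate 1.

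The genes of glutathione synthesis did not pass. Gclc (ENSMUSG00000032350, chromosome 9, 77754535 to 77794485, plus strand) encodes the catalytic subunit of glutamate-cysteine ligase, the rate-limiting enzyme, and Gclm (ENSMUSG00000028124, chromosome 3, 122245557 to 122270732, plus strand) its modifier subunit. Gclc was at 26.5 and 23.6 FPKM in Tox4 esiRNA replicates 1 and 2, against 23.9 and 24.4 FPKM in Luc replicates 1 and 2. These values overlapped (log2 fold change 0.048, 95% interval -0.10 to 0.20, limma adjusted p = 0.716), and without Tox4 replicate 1 the sign turned, to -0.034. Gclm was at 11.8 and 11.4 FPKM in the Tox4 esiRNA libraries, against 12.7 and 12.6 FPKM in the Luc libraries. Its groups did not overlap, with a log2 fold change of -0.12 (SE 0.05, 95% interval -0.24 to 0.0055, limma adjusted p = 0.254). The transcripts of Gclm matched 60 other annotated genes at 90% identity or more over at least 100 bases, and 296 and 244 of its exon bases overlap those of Gm17494, on the opposite strand, and Gm6061, on the same strand, so its value is uncertain where reads could be shared. Slc7a11 (ENSMUSG00000027737, chromosome 3, 49892526 to 50443614, minus strand) encodes xCT, the cystine importer that supplies cysteine for glutathione and that Atf4 also drives. It was listed at 0.332 and 0.511 FPKM in Tox4 esiRNA replicates 1 and 2, against 0.687 and 0.435 FPKM in Luc replicates 1 and 2, on 3, 4, 8 and 4 reads. If these were the true reads, they would be too few to detect a difference. The gene was also below the filter on low values. In the fit without that filter its log2 fold change was -0.13 (95% interval -0.63 to 0.36, limma adjusted p = 0.773). These are the smallest whole reads that the values allow, and the gene length they imply is 599 bases, whereas the annotated exons of Slc7a11 cover 13922 bases. A common multiple of reads and length would give the same values. The value may therefore stand for only a small part of the gene, and its level cannot be set beside that of other genes.

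Of the group's genes that serve the thioredoxin system, Txnrd1 and Srxn1 did not pass either, and both lay higher in the Tox4 esiRNA libraries. Txnrd1 (ENSMUSG00000020250, chromosome 10, 82833951 to 82897712, plus strand) encodes the cytosolic selenoenzyme that recycles thioredoxin. It was at 121 and 117 FPKM in Tox4 esiRNA replicates 1 and 2, against 112 and 108.8 FPKM in Luc replicates 1 and 2, on 3120, 2607, 3709 and 2850 reads. The groups did not overlap. Its fold change on the log2 scale was 0.11 (95% interval 0.020 to 0.20, SE 0.04, limma adjusted p = 0.157). Srxn1 (ENSMUSG00000032802, chromosome 2, 152105516 to 152111376, plus strand) encodes sulfiredoxin, which repairs over-oxidised peroxiredoxins. It was at 3.99 and 4.35 FPKM in the Tox4 esiRNA libraries, against 3.20 and 3.62 FPKM in the Luc libraries, with no overlap. On the log2 scale Srxn1 was at 0.23 (95% interval 0.011 to 0.45, SE 0.09, limma adjusted p = 0.213).

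**Figure D3:**
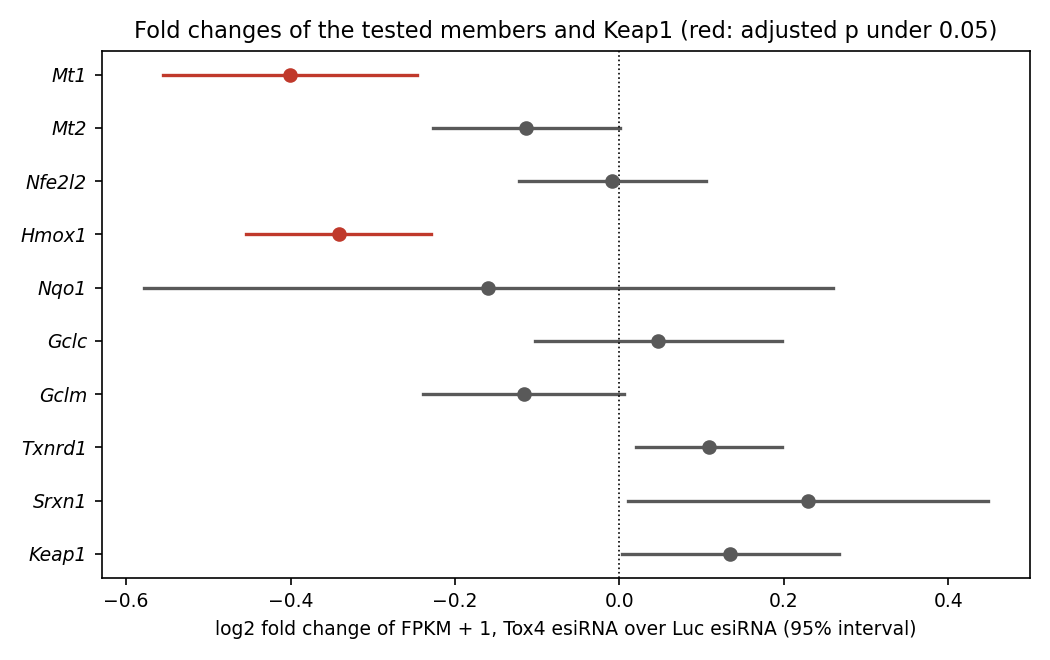
Log2 fold change of FPKM + 1, Tox4 esiRNA over Luc esiRNA, with its 95% interval from limma, for the 9 tested genes and Keap1; red marks an adjusted p under 0.05. Mt1 (-0.40) and Hmox1 (-0.34) lie left of 0 with intervals wholly below 0. Txnrd1, Srxn1 and Keap1 lie to the right with intervals wholly above 0 but did not pass after adjustment. Gclc (0.048) also lies to the right, with an interval that spans 0, and the interval of Nqo1 is the widest.

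Ordered by FPKM, a level per gene length, the 9 tested genes ran over the 4 libraries from Txnrd1 (mean 115 FPKM) through Mt1 (97.5), Hmox1 (48.1), Mt2 (27.8), Gclc (24.6), Nfe2l2 (14.6), Gclm (12.1) and Srxn1 (3.79) to Nqo1 (3.03). In the Tox4 esiRNA libraries Txnrd1 stood above Mt1, at 117 to 121 against 78.5 to 89.5 FPKM, while in the Luc libraries their values overlapped, at 108.8 to 112 and 109.6 to 112 FPKM. The values of Mt2 and Gclc overlapped in the Tox4 esiRNA libraries and not in the Luc libraries. Those of Srxn1 and Nqo1 overlapped in the Luc libraries and not in the Tox4 esiRNA libraries. The implied gene lengths differ from the annotated exons for other genes too. They were 1707 against 7086 bases for Txnrd1 and 498 against 1246 bases for Mt1. This order therefore depends on the lengths the authors used. Ratios of FPKM between libraries do not, but the log2 fold changes do, through the added 1 FPKM and the filter on low values. With 0.1 FPKM added instead, Nqo1 moved from -0.16 to -0.21 and Mt1 stayed at -0.40.

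The wider network of antioxidant, iron and metal genes was followed with a list of 58 genes, of which 55 were in the table and 54 were tested. Limma called 0 of them higher and 4 lower, Maff, Gpx4, Ftl1 and Slc40a1, and 50 did not pass, where 1.89% of all tested genes were called higher and 2.62% lower. At an unadjusted p under 0.05 there were 4 higher and 10 lower of the 54, beside 1243 and 1431 of all 12403. Limma-voom on the recovered reads called 2 higher and 8 lower, beside 5.89% and 5.79% of all tested genes. The median log2 fold change of the list was -0.042, beside -0.0034 over all tested genes.

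Of the 8 genes for haem, iron and export, 2 fell, Ftl1 and Slc40a1, 0 rose and 6 did not pass. Of all tested genes 1.89% were called higher and 2.62% lower. Limma-voom called 1 of the 8 higher and 2 lower, beside 5.89% and 5.79% of all tested genes. Of the 8 genes 5 lay below 0 and 3 above 0, beside 6346 below and 6057 above 0 of all 12403 tested genes. Ftl1, the ferritin light chain gene, was at 172 and 183 FPKM in Tox4 esiRNA replicates 1 and 2, against 231 and 227 FPKM in Luc replicates 1 and 2 (log2 fold change -0.37, SE 0.04, limma adjusted p = 0.0129). Slc40a1, the gene of the iron exporter ferroportin, was at 2.19 and 2.21 FPKM in the Tox4 esiRNA libraries, against 3.64 and 3.66 FPKM in the Luc libraries, on 97, 85, 208 and 165 reads (-0.54, SE 0.08, limma adjusted p = 0.0299). Neither gene's groups overlapped, where 26.7% of all tested genes lay lower in the Tox4 esiRNA libraries without overlap. Fth1, the ferritin heavy chain gene and the most abundant of the 8, was at 396 and 410.3 FPKM in the Tox4 esiRNA libraries, against 415 and 417 FPKM in the Luc libraries, and did not pass (-0.045, 95% interval -0.13 to 0.041, limma adjusted p = 0.520). Abcc4, the gene of an exporter of organic anions and conjugates, had the highest fold change of the 8, at 38.0 and 36.3 FPKM in the Tox4 esiRNA libraries, against 32.9 and 33.3 FPKM in the Luc libraries, and did not pass (0.16, limma adjusted p = 0.0875). Ftl1 transcripts matched 23 other annotated genes at 90% identity or more over at least 100 bases, with 99.6% for Ftl1-ps1, so its value is uncertain where reads could be shared among copies. Ftl1 lost its call without Luc replicate 1 (log2 fold change -0.36), without Luc replicate 2 (-0.38) and with no intensity trend (adjusted p = 0.0683). Slc40a1 lost its call without any 1 of the 4 libraries, although its log2 fold change stayed between -0.54 and -0.53. Most calls over all genes were also lost without either Luc library.

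Among 11 regulators of the pathway only Maff, a small Maf gene whose protein is a partner of both Nrf2 and Bach1, passed the threshold. For comparison, 1.89% of all tested genes were called higher and 2.62% lower. Maff was at 21.7 and 20.0 FPKM in Tox4 esiRNA replicates 1 and 2, against 28.5 and 29.6 FPKM in Luc replicates 1 and 2 (log2 fold change -0.46, SE 0.05, limma adjusted p = 0.0139). It lost its call without Luc replicate 1 (log2 fold change -0.49) or without Luc replicate 2 (-0.44), as did most genes called. Maff also lost its call with no intensity trend (adjusted p = 0.0640). The other small Maf genes, Mafg and Mafk, were at -0.053 and -0.056 on the log2 scale and did not pass, and Bach1 was at -0.069 (limma adjusted p = 0.699). The most abundant regulator was Nfe2l1, the gene of the related factor Nrf1, at 107 FPKM in each Tox4 esiRNA library, against 107 and 109.96 FPKM in the Luc libraries (-0.027, adjusted p = 0.697).

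Of 13 tested genes of glutathione use, Gpx4, which encodes the peroxidase that reduces lipid hydroperoxides, fell and 12 did not pass. The shares over all tested genes were 1.89% higher and 2.62% lower. Gpx4 was at 97.4 and 103 FPKM in Tox4 esiRNA replicates 1 and 2, against 117 FPKM in each Luc library (log2 fold change -0.22, SE 0.04, limma adjusted p = 0.0412). Its transcripts matched 2 other annotated genes closely, with 99.7% identity for Gpx4-ps2, so that reads could be shared. Gpx4 lost its call without Tox4 replicate 1 (log2 fold change -0.18). It also lost its call without Luc replicate 1 (-0.22) or without Luc replicate 2 (-0.22), as did most genes called. The call was lost too with no filter on low values (adjusted p = 0.0630) and with no intensity trend (0.123). Gpx1, the most abundant gene of this list, was at 178 and 193 FPKM in the Tox4 esiRNA libraries, against 184 and 192 FPKM in the Luc libraries, with overlapping groups (-0.025, limma adjusted p = 0.820).

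The remaining lists held no gene past the limma threshold. Among 10 thioredoxin and peroxiredoxin genes an unadjusted p under 0.05 was reached by 1 that was higher and 3 that were lower, the same counts as limma-voom gave, and the median log2 fold change was -0.040. Over all 12403 tested genes the unadjusted counts were 1243 higher and 1431 lower, and limma-voom called 5.89% higher and 5.79% lower. Txn1, the thioredoxin gene and the most abundant of them, was at 908 and 952 FPKM in the Tox4 esiRNA libraries, against 1031 and 1003 FPKM in the Luc libraries (-0.13, 95% interval -0.23 to -0.027, limma adjusted p = 0.146). Of the 6 genes of NADPH supply, which feeds both the glutathione and the thioredoxin cycle, 0 reached an unadjusted p under 0.05 and 0 passed in limma-voom, with Tkt, the transketolase gene, at 167 and 174 FPKM in the Tox4 esiRNA libraries, against 168 and 167 FPKM in the Luc libraries. The same counts of 0 held for the 3 genes against superoxide and hydrogen peroxide, of which Sod1 was the most abundant, at 343 and 353 FPKM in the Tox4 esiRNA libraries, against 368 and 352 FPKM in the Luc libraries. Of 3 tested metal response genes Mtf1, the factor that drives the metallothionein genes, was at 2.38 and 2.42 FPKM in the Tox4 esiRNA libraries, against 3.07 and 2.92 FPKM in the Luc libraries. Its groups did not overlap and its log2 fold change was -0.23 (SE 0.09, 95% interval -0.45 to -0.015), which did not pass in limma after adjustment (adjusted p = 0.206) and passed in limma-voom. Of its exon bases 721 lie opposite those of 1110065P20Rik. Slc39a10, a zinc importer gene and the most abundant of the list, was at 27.3 and 25.7 FPKM in the Tox4 esiRNA libraries, against 27.4 and 28.3 FPKM in the Luc libraries, and Mt3 and Mt4 were not in the table.

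**Figure D4:**
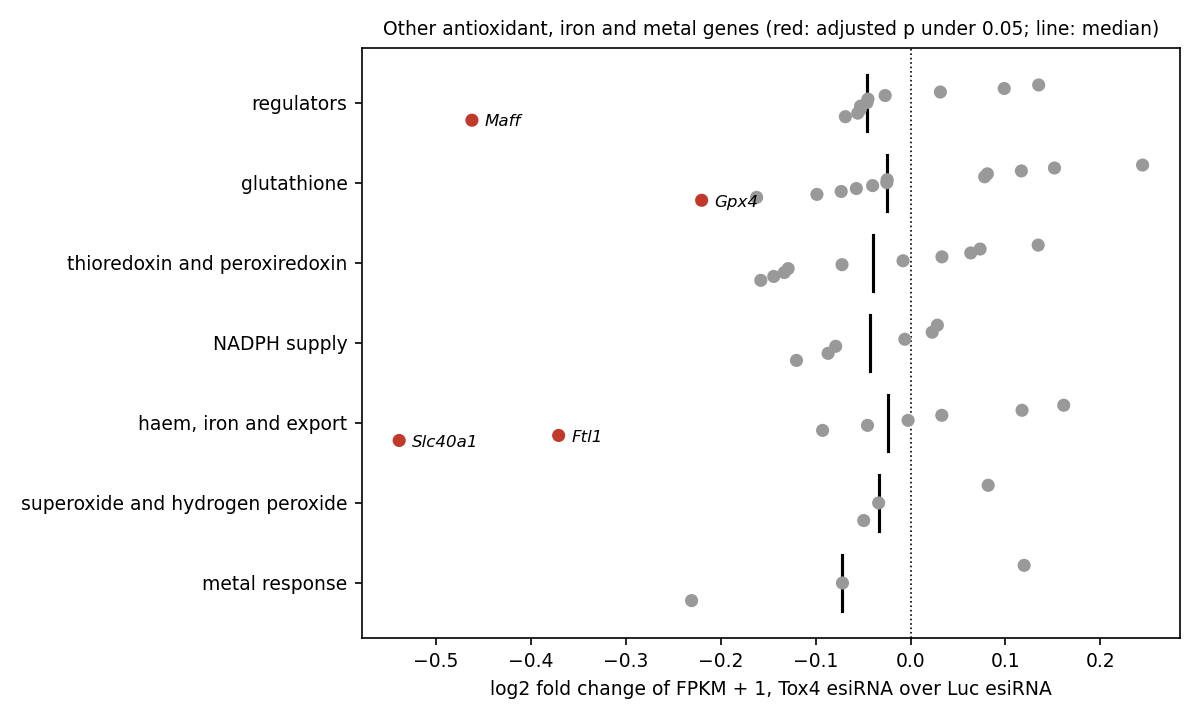
Log2 fold change of FPKM + 1, Tox4 esiRNA over Luc esiRNA, of the 54 tested genes of the wider list, 1 point per gene in rows by role, with a black line at the median of each row; red marks an adjusted p under 0.05. The red points are Slc40a1 (-0.54), Maff (-0.46), Ftl1 (-0.37) and Gpx4 (-0.22), Mtf1 (-0.23) lies left of Gpx4 without passing, and the row medians lie between -0.072 and -0.024.

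The genes whose profile over the 4 libraries lay nearest to that of Mt1 were Trib3, Cldn3, Krcc1, Pla2g16 and H2-T10. The measure was the root mean square distance between log2(FPKM + 1) values centred on each gene's mean, over 8925 genes that averaged 5 FPKM or more. It was 0.021 for Trib3 and 0.024 for H2-T10, beside a root mean square of 0.21 for Mt1 itself. Trib3 was at 14.2 and 16.2 FPKM in Tox4 esiRNA replicates 1 and 2, against 21.2 and 20.8 FPKM in Luc replicates 1 and 2. Tox4 replicate 1 was its lowest library, as for Mt1, but Trib3 was chosen for just such likeness. For Slc7a11 the nearest genes were Samd10, Prr7, Mmaa, Cryl1 and Mitd1, at distances of 0.020 to 0.026. That ranking rests on low values of Slc7a11, for which 3 to 8 reads per library are the fewest possible. With 4 libraries in 2 groups such likeness is a description and carries no test.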

How the data were processed

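The authors deposited FPKM values of 15429 genes for 4 libraries, 1 file per library and 1 series table with identical values in all 4. The submitters' processing notes name CASAVA 1.8, STAR 2.3.0e and the build GRCm38.p1. The counting program, the annotation, the use of strand and the handling of multiply matching reads were not given in the sources used here.

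Log2(FPKM + 1) of the 12403 genes that averaged 1 FPKM or more was tested with limma 3.58.1 under R 4.3.3 in a two-sided test with an intensity trend, all 4 libraries, no covariate, 2 residual and 4.01 prior degrees of freedom, and Benjamini-Hochberg adjustment over all of them. The fold change on this scale understates changes of low genes. Whole reads were worked back from the FPKM values: within each gene the values were whole multiples of 1 read for 100% of genes (relative tolerance 1e-11), and the smallest multiple giving a whole gene length within 0.02 bases was taken, a choice of common factor that 5.33% of genes needed. Where the true reads and length share a factor, both come out too small. The libraries of a group differed by more than counting noise (chi-square over its degrees of freedom 1.92 for Tox4 and 1.62 for Luc). The fit and the recovery of reads were also run on simulated data. The simulated fit gave every gene the same spread beyond counting noise, which was not estimated from these libraries. The outcome is not reported here, and no weight is placed on it.

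The genes and lists were chosen with earlier results of these data known. Named were the 10 genes, Keap1, Tox4, every gene of the wider list past the threshold, the most abundant gene of each of its parts, and the 5 genes nearest to Mt1 and to Slc7a11; Mafg, Mafk, Bach1, Mtf1, Abcc4, Sox2, Otx2 and Pou5f1 were named after their values were seen. Alternatives were pseudocounts of 0.1 and 0.5, no filter, a mean of at least 5 FPKM, no trend, rescaled libraries, limma-voom on recovered reads, each library left out, and the replicate number as a block. Coordinates come from the GENCODE annotation of GRCm38. Mafg stands for 2 identifiers, and the one listed at 0 in all libraries was left out.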

Additional observations from a re-analysis of the deposited data

How the results depend on the processing

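Of the 10 genes, none was called higher under any of the 12 alternatives, and the count of 2 called lower became 1 with no filter on low values and 0 with no intensity trend. It ranged from 0 to 2 with 1 library left out, 0 without either Luc library, where the lone library of a group is assumed to vary like the pair of the other group, as also in the fits without a Tox4 library. Mt1 kept a negative log2 fold change throughout, from -0.49 to -0.31, and Hmox1 from -0.39 to -0.29. The sign turned for Nfe2l2 without Luc replicate 1 (0.014) and for Nqo1 (0.084) and Gclc (-0.034) without Tox4 replicate 1. With 1 library left out these ranged from -0.031 to 0.014 for Nfe2l2, from -0.40 to 0.084 for Nqo1 and from -0.034 to 0.13 for Gclc. In the wider list, 2 were called higher in limma-voom and 0 to 1 with 1 library left out. The 4 called lower became 3 with no filter (without Gpx4), 1 with no trend (Slc40a1), 8 in limma-voom and 0 to 3 with 1 library left out. Over all genes the 234 higher and 325 lower became 146 and 202 with no filter, 33 and 45 with no trend, 730 and 718 in limma-voom, 365 higher with a mean of at least 5 FPKM, and 27 to 176 and 34 to 296 with 1 library left out. The cause of these shifts was not tested. With the replicate number as a block, 222 genes were higher and 334 lower, and no call of the 10 genes or the wider list changed. Same-numbered libraries shared only a number, with a correlation of -0.036 between their deviations from the group means. The 51 to 105 reads of Nqo1 limit what could be detected for it. The 3 to 8 reads of Slc7a11 would do the same if they were its true reads and not only the fewest possible.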
